A study of Homo sapiens with 4 samples.

Results

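The amino acid transporter genes were taken from the deposited RNA-Seq count table by symbol, as all members of the SLC1, SLC6, SLC7, SLC36, SLC38 and SLC43 families together with SLC3A1 and SLC3A2. The rule gave 59 of the 27011 genes in the table, and 27 of them were among the 10978 genes that the authors selected for their deposited comparison and that were tested here. By family, 3 of 7 SLC1 genes, 2 of 2 SLC3 genes, 4 of 19 SLC6 genes, 7 of 13 SLC7 genes, 2 of 4 SLC36 genes, 7 of 11 SLC38 genes and 2 of 3 SLC43 genes were tested. The rule follows protein families and not substrates. The SLC6 family therefore also brings in carriers of monoamines, GABA, taurine and creatine, and the SLC43 family a purine transporter, so that the set is wider than amino acids alone.

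The libraries came from HEK293T, an established human embryonic kidney cell line, of wild-type genotype (WT) or with a disrupted HELZ gene (Helz-null). The Helz-null line was derived from HEK293T by CRISPR-Cas9 editing, no treatment was applied to either line, and cells were harvested 24 h after plating. HELZ is a putative RNA helicase that associates with mRNA decay factors. Each genotype was represented by 2 libraries described as biological replicates, which gives 4 libraries in all. Whether the Helz-null line was grown from 1 clone is not given in the sources used here, and the loss of HELZ and the derivation of the edited line cannot be told apart in a comparison of 2 lines. The p-values measure the spread between libraries of the same line.

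Cells take up amino acids through carriers, many of which exchange one amino acid for another or draw on sodium or proton gradients. Several SLC7 proteins are light chains that reach the plasma membrane only when joined to a heavy chain of the SLC3 family. Amino acids that enter in this way are sensed by the mTORC1 pathway at the lysosome and by the kinase GCN2, which acts through the transcription factor ATF4 when amino acids are scarce.

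Promoter sequences are shown for the tested transporter genes whose promoters hold letters of 2 well-known motifs, so that they can be set beside the expression values. The sequences are from RefSeq on GRCh38.p14 and cover the 250 bases before each listed start. Of the 59 genes 44 had an entry, 20 of the 27 tested genes among them. SLC7A11 was among the tested genes without an entry, so its promoter was not searched. Letters outside these 250 bases, including those within the genes, were not searched for any gene. The motifs searched on both strands were TGATGNAA, the core of the amino acid response element bound by ATF4, and CACGTG, the E-box bound by factors such as MYC and TFEB. The motifs are distinct, although a copy of one can share its last letters with the first letters of the other. Capitals mark the matching letters. SLC7A5, the light chain gene of the main leucine carrier, is shown with its whole window (chr16:87869508-87869757, minus strand), in which CACGTG began 130 bases before the start.
SLC7A5: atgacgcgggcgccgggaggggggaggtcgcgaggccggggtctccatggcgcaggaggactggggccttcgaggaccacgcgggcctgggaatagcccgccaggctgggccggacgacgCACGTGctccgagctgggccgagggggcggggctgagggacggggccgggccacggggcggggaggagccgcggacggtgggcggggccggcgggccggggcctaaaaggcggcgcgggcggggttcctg

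TGATGNAA was found at 2 of the 44 genes, SLC1A3 and SLC1A5, both of which were tested, and at 3.89% of the 27305 genes with a promoter entry. It was present in 3.14% of all windows of this length. A stretch of 30 bases around each match is shown, at chr5:36596357-36596386 on the plus strand for SLC1A3 and at chr19:46784893-46784922 on the minus strand for SLC1A5.
SLC1A3: caggaaatgacTGATGCAAagcagggttaa
SLC1A5: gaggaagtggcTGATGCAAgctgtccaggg

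CACGTG was found at 9 of the 44 genes and at 7.73% of all genes with an entry, and it was present in 6.34% of all windows. Of the 9 genes, 5 were tested, namely SLC1A5, SLC7A5, SLC7A8, SLC36A1 and SLC43A1. SLC1A5 has 3 listed starts, and its 2 matches belonged to different ones. The stretches below lie at chr19:46787326-46787355 on the minus strand for SLC1A5, at chr14:23154505-23154534 on the minus strand for SLC7A8, at chr5:151447548-151447577 on the plus strand for SLC36A1, whose window held 2 copies, and at chr11:57515797-57515826 on the minus strand for SLC43A1.
SLC1A5: ggcgggagtggtCACGTGgacaggacgggg
SLC7A8: cacaattagaaaCACGTGctcagttccttc
SLC36A1: cgctcaagggagCACGTGacctcggcctct
SLC43A1: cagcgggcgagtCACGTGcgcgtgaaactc

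A match is a description of the letters and not evidence of binding. Of the 6 tested genes with a match to either motif, SLC1A5 and SLC7A5 were called lower in Helz-null cells in the comparison described next. SLC1A3, SLC7A8, SLC36A1 and SLC43A1 were not called. Of all 27 tested transporters 40.7% were called lower, against 15.5% of all tested genes, and a link between motif and call was not tested.

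Read counts, which the authors deposited without normalization, summed to between 41745401 and 70464140 per library. Values per library are given as CPM (counts scaled to a common library total) scaled by the TMM method of edgeR, and levels of different genes are compared only as FPKM, computed from the CPM and the deposited gene width. Genes were tested with edgeR's quasi-likelihood test, fitted to all 10978 genes, and called at a false discovery rate (FDR, the p-value after Benjamini-Hochberg adjustment over all of them) under 0.005. Changes are given as log2FC of Helz-null against WT, with ± for the standard error. HELZ itself stood at 99.8 and 103.9 CPM in WT and at 36.98 and 37.88 CPM in the Helz-null libraries (log2FC -1.44 ± 0.042, edgeR FDR 2.13e-27). Of the 6 markers chosen for HEK293 cells, all were detected in every library, while 5 of 7 markers of leukocytes, endothelium, hepatocytes, muscle and fibroblasts stayed below 0.1 CPM in all 4. ALB reached 0.15 CPM in 1 WT library, and COL1A1 lay between 14.3 and 16.0 CPM. The HEK293 markers were not at the same level in both lines. The log2FC values of the tested ones were -0.98 for KRT8, -0.16 for KRT18, -0.14 for VIM, -0.041 for NEFL and 0.89 for NEFM. The authors name NEFM among their examples of genes raised in Helz-null cells. The part of differences between the lines other than the loss of HELZ in the values below was not tested.

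More tested transporter genes were lower than higher in Helz-null cells. Of the 27 tested genes, 11 were down-regulated, 3 were up-regulated and 13 were not called. Down-regulated genes thus made up 40.7% of the tested transporters, against 15.5% of all tested genes, and up-regulated genes 11.1%, against 13.9% of all tested genes. The log2FC was below 0 for 19 of the 27 and its median was -0.081, against -0.00091 over all tested genes. The median absolute log2FC was 0.16 for the transporters and 0.11 for all genes. For 24 of the 27 transporters the 2 WT and the 2 Helz-null values did not overlap, which held for 70.6% of all tested genes. Scaling by library size alone raised the median of all genes by 0.033 and called 5 transporters higher and 9 lower, so that up-regulated genes were 35.7% of the called transporters in place of 21.4%. The same scaling moved the calls over all tested genes from 1524 up and 1701 down to 2109 up and 1318 down. A test against a change of at least 1.2-fold retained 3 genes, SLC7A11, SLC7A5 and SLC6A9, all of them lower, and it called 1.98% of all tested genes higher and 2.9% lower.

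**Figure D1:**
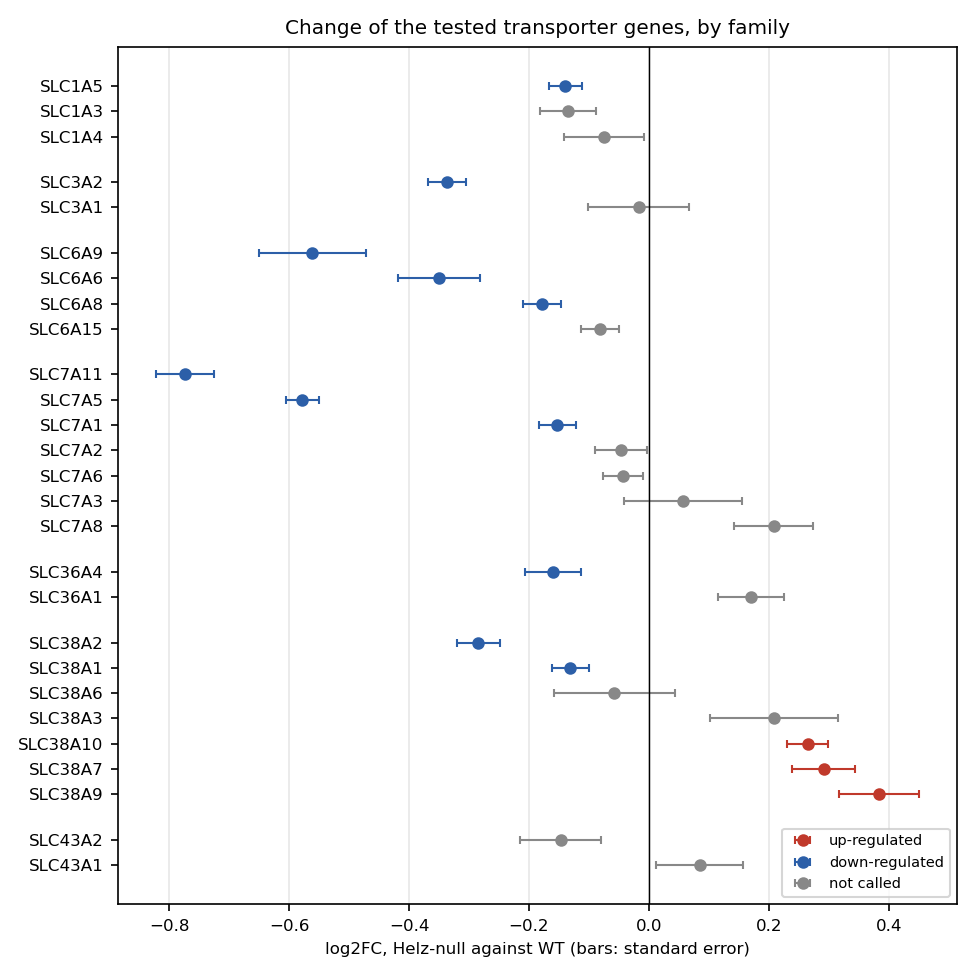
Change in Helz-null against WT cells for the 27 tested amino acid transporter genes, grouped by family; points are log2FC values from edgeR and bars their standard errors, with 2 libraries per genotype. Down-regulated genes occur in 6 of the 7 families, and the 3 up-regulated genes, SLC38A9, SLC38A7 and SLC38A10, all belong to SLC38.

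The largest decreases among the tested transporters were those of 2 light chains of heteromeric transporters, SLC7A11 and SLC7A5. SLC7A11 (chr4:139085251-139163503 on GRCh37, the same sequence as hg19, minus strand) encodes the light chain of the cystine and glutamate exchanger that supplies cystine for glutathione. Its values were 60.3 and 63.9 CPM in WT cells and 36.3 and 36.2 CPM in Helz-null cells. Both Helz-null values lay far below both WT values (log2FC -0.77 ± 0.048, edgeR FDR 1.05e-16). RNA was taken from whole cultures, so fewer cells that express a gene and less RNA per cell cannot be told apart, here or for the genes that follow. The 20 nearest tested genes on chromosome 4 had a median log2FC of -0.13, and 9 of them were down-regulated. When the median of these neighbours was subtracted, SLC7A11 was still called. Of its exon bases, 8.97% are shared with SLC7A11-AS1 on the opposite strand, which had a mean of 1.46 CPM.

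SLC7A5 (chr16:87863629-87903113, minus strand) encodes the light chain of the main carrier of leucine and other large neutral amino acids in dividing cells. It stood at 542.4 and 562.1 CPM in the WT libraries. In the Helz-null libraries it stood at 367.5 and 372.1 CPM. The groups did not overlap (log2FC -0.58 ± 0.028, edgeR FDR 4.64e-20). Its neighbours on chromosome 16 had a median log2FC of 0.073, with 3 of the 20 up-regulated and 4 down-regulated. A pseudogene, SLC7A5P2, carried between 2.24 and 3.54 CPM, and any exchange of reads between the copies was not tested.

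SLC3A2 (chr11:62623476-62656352, plus strand) encodes the CD98 heavy chain, the shared partner of SLC7A5, SLC7A6, SLC7A8 and SLC7A11. Its values of 202.1 and 202.7 CPM in WT cells compared with 156.3 and 164.0 CPM in Helz-null cells. SLC3A2 was thus lower in both Helz-null libraries (log2FC -0.34 ± 0.032, edgeR FDR 1.64e-11). The other heavy chain gene, SLC3A1, the partner of a cystine and cationic amino acid carrier of kidney and gut, had overlapping groups and was not called, with a log2FC of -0.017 ± 0.084 that lay between -0.15 without WT replicate 1 and 0.10 without WT replicate 2. PREPL on the opposite strand shares 29.4% of the SLC3A1 exon bases, and since the use of strand in the counting is not given, reads of the 2 genes cannot be told apart there.

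Of the 4 tested light chains, 2 were down-regulated and 2 were not called, and differences between the light chains were not tested. Beside SLC7A11 and SLC7A5, the tested light chains were SLC7A6, which exchanges cationic for neutral amino acids, and SLC7A8, a second system L light chain. SLC7A6 had 125.4 and 124.0 CPM in WT cells and 120.5 and 121.5 CPM in Helz-null cells, a log2FC of -0.044 that was not called (standard error 0.033, edgeR FDR 0.303), and it shares 44.4% of its exon bases with SLC7A6OS on the opposite strand. SLC7A8 had 20.8 and 22.0 CPM in WT cells and 23.6 and 25.4 CPM in Helz-null cells. Its groups did not overlap and its log2FC of 0.21 was positive, but it missed the threshold (edgeR FDR 0.0099). SLC7A8 was called without WT replicate 2 (edgeR FDR 0.0040), with library size scaling (edgeR FDR 0.0026) and after subtraction of the neighbour median (edgeR FDR 0.0028). The FPKM of SLC3A2 divided by that of SLC7A5 was 0.583 and 0.565 in WT cells and 0.666 and 0.690 in Helz-null cells, higher in both of the latter, and this ratio was not tested.

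Of the 3 tested cationic amino acid transporters, SLC7 proteins that work without a heavy chain and carry arginine and lysine, 1 was called. SLC7A1 (chr13:30083551-30169825, minus strand), the widely expressed arginine and lysine carrier, had 247.8 and 259.8 CPM in WT cells and 228.8 and 227.6 CPM in Helz-null cells. Both Helz-null values were lower (log2FC -0.15 ± 0.030, edgeR FDR 7.26e-05). SLC7A2 and SLC7A3 were not called, with log2FC values of -0.047 ± 0.043 and 0.056 ± 0.098. The sign of SLC7A3 turned without WT replicate 2 (log2FC -0.0042), and no direction can be read for it. Over the 7 tested SLC7 genes, 3 were down-regulated and 0 up-regulated. The family median of -0.047 was the value of SLC7A2, and it was -0.014 with library size scaling and -0.081 with neighbour medians subtracted.

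Within the SLC1 family, the neutral amino acid exchangers and the glutamate carriers had log2FC values below 0 for 3 of 3 tested genes, of which 1 was called. SLC1A5 (chr19:47278140-47291851, minus strand), the sodium-dependent exchanger that brings glutamine into many dividing cells, stood at 495.7 and 513.1 CPM in WT cells and at 461.5 and 454.3 CPM in Helz-null cells. The Helz-null values were lower than both WT values by a small amount (log2FC -0.14 ± 0.028, edgeR FDR 8.40e-05). Without Helz-null replicate 2 the call was lost, with an edgeR FDR of 0.011. SLC1A3, a high-affinity glutamate and aspartate carrier, had a similar log2FC of -0.14 but a standard error of 0.046 and was not called (edgeR FDR 0.016). SLC1A4, the second exchanger of small neutral amino acids, had a log2FC of -0.075 and was not called. With single libraries left out, the value of SLC1A4 ranged from -0.11 to -0.044.

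All 4 tested SLC6 genes had log2FC values below 0, and 3 of them were down-regulated, with a family median of -0.26. With neighbour medians subtracted, the median was -0.17 and 2 of the 3 calls remained, SLC6A6 being lost. SLC6A9 (chr1:44457172-44497139, minus strand), a glycine transporter, had 13.7 and 14.0 CPM in WT cells and 9.68 and 9.15 CPM in Helz-null cells. The groups were well apart (log2FC -0.56 ± 0.089, edgeR FDR 2.02e-06), and 7.87% of its exon bases are shared with CCDC24 on the opposite strand. SLC6A8 (chrX:152953381-152962043, plus strand) carries creatine into cells. Its values were 189.2 and 195.0 CPM in WT cells and 170.0 and 169.5 CPM in Helz-null cells, lower in both Helz-null libraries (log2FC -0.18 ± 0.031, edgeR FDR 1.03e-05). SLC6A15, a carrier of branched-chain amino acids and proline, had a log2FC of -0.081 and was not called, with edgeR FDR 0.036.

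SLC6A6 (chr3:14444076-14530857, plus strand), the taurine transporter, lay among genes many of which were also down-regulated. It had 23.0 and 24.1 CPM in WT cells and 17.9 and 18.9 CPM in Helz-null cells, with no overlap (log2FC -0.35 ± 0.068, edgeR FDR 5.64e-05). Its 20 nearest tested genes had a median log2FC of -0.19, and 13 of them were down-regulated. After the neighbour median was subtracted, the log2FC of SLC6A6 was -0.16 and the call was lost (edgeR FDR 0.057).

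The SLC38 family was divided between decreases and increases. The system A carriers SLC38A1 and SLC38A2, sodium-coupled importers of small neutral amino acids such as alanine and glutamine, were both down-regulated, and they are neighbours on chromosome 12. SLC38A2 (chr12:46751971-46766556, minus strand) had 165.7 and 181.3 CPM in WT cells and 145.5 and 139.2 CPM in Helz-null cells. Both WT values lay above both Helz-null values (log2FC -0.28 ± 0.036, edgeR FDR 1.68e-08). SLC38A1 (chr12:46576846-46663800, minus strand) had 251.1 and 264.4 CPM in WT cells and 231.1 and 238.9 CPM in Helz-null cells. It was lower in both (log2FC -0.13 ± 0.031, edgeR FDR 6.36e-04), with a neighbour median of -0.067. The call of SLC38A1 was lost without WT replicate 2 (edgeR FDR 0.0092), without Helz-null replicate 1 (edgeR FDR 0.034), with library size scaling (edgeR FDR 0.0081) and after subtraction of the neighbour median (edgeR FDR 0.091).

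The 3 up-regulated transporter genes were SLC38A9, SLC38A7 and SLC38A10. SLC38A9 (chr5:54921673-55069022, minus strand) encodes a lysosomal arginine sensor and transporter that signals to mTORC1. It had 19.0 and 20.4 CPM in WT cells and 26.0 and 25.3 CPM in Helz-null cells. Both Helz-null values were higher (log2FC 0.38 ± 0.066, edgeR FDR 8.30e-06). SLC38A7 (chr16:58699013-58718674, minus strand), which exports glutamine and asparagine from lysosomes, had 33.0 and 33.4 CPM in WT cells. In Helz-null cells it had 40.3 and 40.8 CPM, a difference of 0.29 ± 0.052 on the log2 scale (edgeR FDR 1.55e-05).

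SLC38A10 (chr17:79218611-79269347, minus strand), a less studied member of the family, had 102.1 and 106.4 CPM in WT cells and 125.4 and 124.7 CPM in Helz-null cells. It was higher in both Helz-null libraries (log2FC 0.26 ± 0.035, edgeR FDR 4.42e-08). The neighbour medians of the 3 up-regulated genes were -0.022 for SLC38A9, 0.013 for SLC38A7 and -0.010 for SLC38A10. SLC38A3, a system N glutamine carrier, had 7.15 and 8.12 CPM in WT cells and 8.81 and 8.74 CPM in Helz-null cells and was not called (log2FC 0.21 ± 0.107). SLC38A6 had a log2FC of -0.058 ± 0.101 and was not called, and its sign turned when the neighbour median was subtracted (0.017). Over the 7 tested SLC38 genes the median log2FC was 0.21, the value of SLC38A3, and it was 0.11 without WT replicate 1 and 0.29 without WT replicate 2.

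The proton-coupled and the SLC43 carriers had differences near the threshold or below it. SLC36A4 (chr11:92877340-92931157, minus strand), a carrier of proline and tryptophan, had 53.6 and 56.2 CPM in WT cells and 50.2 and 48.1 CPM in Helz-null cells. It was lower in both and called (log2FC -0.16 ± 0.047, edgeR FDR 0.0048), but the call was lost under 9 of 12 alternatives, among them the fits without WT replicate 2 (edgeR FDR 0.044), without Helz-null replicate 1 (edgeR FDR 0.0071) and without Helz-null replicate 2 (edgeR FDR 0.106). SLC36A1, a lysosomal and plasma membrane carrier of small neutral amino acids, had 32.7 and 35.7 CPM in WT cells and 39.0 and 37.8 CPM in Helz-null cells. Its groups did not overlap, but the log2FC of 0.17 missed the threshold (edgeR FDR 0.010). With single libraries left out, the log2FC of SLC36A1 ranged from 0.10 to 0.23. The system L carriers SLC43A1 and SLC43A2 were not called, with log2FC values of 0.085 ± 0.073 and -0.15 ± 0.067. For SLC43A1 the value was 0.17 without WT replicate 1 and 0.019 without WT replicate 2.

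On the FPKM scale, which allows levels of different genes to be compared, SLC1A5, SLC7A5, SLC3A2 and SLC6A8 were in this order the transporters with the highest levels in each of the 4 libraries. SLC1A5 stood at 154.6 and 160.0 FPKM in WT cells and at 144.0 and 141.7 FPKM in Helz-null cells. SLC7A5 followed with 119.4 and 123.7 FPKM in WT cells and 80.9 and 81.9 FPKM in Helz-null cells. SLC38A2 and SLC7A1 came next in WT cells and changed places in Helz-null cells, where SLC7A1 stood at 31.2 and 31.0 FPKM and SLC38A2 at 29.8 and 28.5 FPKM. In WT cells the values were 33.9 and 37.1 FPKM for SLC38A2 and 33.7 and 35.4 FPKM for SLC7A1, ranges that overlap.

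The summed FPKM of the 59 genes was 647.2 and 668.8 in WT cells and 569.8 and 570.7 in Helz-null cells, lower in both of the latter. SLC1A5, SLC7A5 and SLC3A2 together made up 53.1% and 52.9% of this sum in WT cells and 48.9% and 49.1% in Helz-null cells. The share of SLC7A5 alone went from 18.4% and 18.5% in WT cells to 14.2% and 14.4% in Helz-null cells, whereas that of SLC1A5 was 23.9% in both WT replicates and 25.3% and 24.8% in Helz-null cells. These sums are dominated by a few genes and were not tested.

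The 32 transporter genes outside the tested list were expressed at low levels. None exceeded 1.78 FPKM in any library, 6 had 0 counts in every library and 16, these 6 included, had at most 3 counts in every library. For a gene with 0 counts in a library, the limit of 3 counts corresponds to between 0.043 and 0.073 CPM, depending on the library. This limit covers only the counting error of independent counts. Under the filterByExpr filter of edgeR, which retained 16087 genes of the count table, 38 transporter genes could be tested, and 3 were up-regulated and 12 down-regulated, against 9.83% and 11.5% of all genes in that fit. The 3 and 10 of these that were also in the tested list include all calls described above except SLC36A4.

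The 2 further genes called in that fit were SLC6A11 and SLC6A17, both down-regulated. SLC6A11, a GABA transporter, had 20.1 and 19.7 CPM in WT cells and 12.1 and 13.3 CPM in Helz-null cells, with no overlap (log2FC -0.64 ± 0.075, edgeR FDR 2.12e-08), and the tested genes nearest to it on chromosome 3 had a median log2FC of -0.19. SLC6A17, a vesicular carrier of neutral amino acids in neurons, had 2.72 and 3.05 CPM in WT cells. In Helz-null cells it had 1.43 and 1.74 CPM, lower in both (log2FC -0.84 ± 0.196, edgeR FDR 9.40e-04). SLC38A5, a system N carrier, had only 4 to 22 counts per library and a log2FC of -1.36 that was not called (edgeR FDR 0.043). The other genes that reached 1 CPM in at least 1 library were not called. They were the glutamate carrier SLC1A1 with 5.35 and 6.66 CPM in WT cells and 5.52 and 5.29 CPM in Helz-null cells, the serotonin transporter SLC6A4 with 1.09 to 1.41 CPM over all libraries, and the orphan SLC6A16 with 0.789 to 1.12 CPM.

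Genes of the pathways that sense amino acids, listed by role, included calls in both directions. Of 37 such genes, all of them tested, 6 rose and 6 fell, which is 16.2% in each direction against 13.9% and 15.5% of all tested genes, and the median log2FC was 0.0060. With neighbour medians subtracted 4 rose and 7 fell, against 1389 and 1463 of the 10896 genes in that fit. At an FDR under 0.05, 6 rose and 9 fell, against 2371 and 2506 of all 10978 tested genes. EIF2AK4, which encodes GCN2, the kinase that detects uncharged tRNAs, had 89.9 and 88.2 CPM in WT cells and 48.1 and 50.8 CPM in Helz-null cells. It was the gene of this list with the largest absolute log2FC and lay well below WT in both Helz-null libraries (log2FC -0.85 ± 0.042, edgeR FDR 5.99e-20), with a neighbour median of -0.040. ATF4, the factor downstream of GCN2, had 777.5 and 753.6 CPM in WT cells and 707.8 and 714.7 CPM in Helz-null cells. Its log2FC was -0.11 (edgeR FDR 0.0014), and its call was lost without Helz-null replicate 1 (edgeR FDR 0.054), without Helz-null replicate 2 (edgeR FDR 0.028) and with library size scaling (edgeR FDR 0.023).

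Among the cytosolic sensors, the leucine sensor SESN2 was down-regulated, with a log2FC of -0.23, while LARS (now LARS1), the leucyl-tRNA synthetase, rose with 0.18 and GATSL2 (now CASTOR2), a relative of the arginine sensor CASTOR1, with 0.30. GATOR1 restrains mTORC1 and GATOR2 opposes GATOR1. Of the 7 genes of GATOR1 and its anchor, ITFG2 was called, with a log2FC of -0.36 that ranged from -0.47 to -0.21 with single libraries left out. Of the 5 GATOR2 genes SEC13 was called, with a log2FC of -0.32 and a neighbour median of -0.19 on chromosome 3. Of the 12 genes of the Rag GTPases, the Ragulator and folliculin, LAMTOR2 and LAMTOR5 were up-regulated, both with a log2FC of 0.21. The mTORC1 genes MTOR and MLST8 differed in direction, with log2FC values of 0.22 and -0.15. RHEB, the GTPase that activates mTORC1, had a log2FC of 0.36, but its neighbours had a median of 0.28 and its call was lost when that median was subtracted (edgeR FDR 0.052), as was that of LAMTOR2 (edgeR FDR 0.0097). Without WT replicate 1, GATSL2 (edgeR FDR 0.019), ITFG2 (edgeR FDR 0.054), LAMTOR2 (edgeR FDR 0.011) and MLST8 (edgeR FDR 0.0061) lost their calls, as did LAMTOR2 (edgeR FDR 0.016) and MLST8 (edgeR FDR 0.023) without Helz-null replicate 2.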

How the data were processed

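RNA-Seq was available for 2 WT and 2 Helz-null HEK293T libraries. The authors filtered out ribosomal reads (Bowtie2), aligned the remaining read pairs to hg19 (TopHat2), and deposited raw counts per gene made with QuasR. Versions, gene annotation and the use of strand are not given in the sources used here. The deposited comparison table holds the authors' edgeR results for 10978 genes, as a log2 fold change, a log2 mean CPM, a p-value and its adjusted value for each, and only its gene list was used. The gene width deposited with the counts, in bases, gave the FPKM.

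Counts of these genes, 97.8% of each library, were tested with edgeR 4.0.16 (limma 3.58.1, R 4.3.3; TMM factors 0.987 to 1.01, glmQLFit, glmQLFTest, genotype as the only term, Benjamini-Hochberg over all genes). Standard errors were derived from the log2FC and the F statistic. The biological coefficient of variation was 2.60%. Replicates differed by more than sampling noise (chi-square per degree of freedom 4.15 for WT and 3.01 for Helz-null).

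The transporter genes and the other gene lists were chosen with earlier results of these data known. Each called transporter was named with its values in every library, other tested ones by log2FC, untested ones where a library reached 1 CPM, and called genes of the other lists could be named. A few values of genes that were not called were added after they were seen. Positions came from GENCODE on GRCh37, where 10379 tested genes were found by symbol and 517 by a former symbol, and 82 were not found. Alternatives were DESeq2 1.42.0, other scalings, gene filters and thresholds, a replicate block, single libraries left out and subtraction of the median log2FC of the 20 nearest tested genes. The steps were tested on simulated data. Tables and figures were made with Python 3.11.15, numpy 2.4.6, pandas 2.3.3 and matplotlib 3.10.9.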

Additional observations from a re-analysis of the deposited data

How the results depend on the processing

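Of the 14 called transporter genes, 14 had the same direction under all 12 alternatives to the fit and 3 stayed called under all of them, while 10 stayed called under all but the test against a 1.2-fold change. Up-regulated transporters, 3 in the report, numbered 5 with library size scaling, 5 at an FDR under 0.05 and 0 in the 1.2-fold test. Over all 10978 tested genes, the up-regulated ones numbered 1524 in the report and 2109, 2371 and 217 under these 3 settings. Down-regulated transporters, 11 in the report, numbered 3 in the 1.2-fold test, against 1701 and 318 of all tested genes. The 5 transporters up-regulated with library size scaling were SLC7A8 and SLC36A1 beside the SLC38 genes. In the 1.2-fold test 0 sensing genes were up-regulated and 1 of 37, EIF2AK4, was down-regulated, against 1.98% and 2.9% of all tested genes. Fits without 1 library leave a lone library in 1 group, so their counts of called genes are not given.

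In the main fit the SLC3 and SLC43 medians, of 2 tested genes each, were -0.18 and -0.031. The median log2FC of the transporters was -0.048 with library size scaling. The SLC6, SLC7, SLC38 and SLC43 medians were then -0.23, -0.014, 0.24 and 0.0021, so that the sign of SLC43 turned. The SLC6, SLC7 and SLC38 medians became -0.17, -0.081 and 0.27 when neighbour medians were subtracted. With single libraries left out the medians ranged from -0.12 to -0.078 for all tested transporters, from -0.24 to -0.11 for SLC3, from -0.29 to -0.24 for SLC6 and from 0.11 to 0.29 for SLC38. With the replicate number as a block, 3 transporters were up-regulated and 11 down-regulated, with a median of -0.081. The numbers did not pair the samples (correlation of same-numbered deviations 0.034), and the block moved the calls over all genes from 1524 up and 1701 down to 1677 and 1841.

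Depth limited the 16 transporter genes with at most 3 counts in every library, for which no difference was detectable. A fit without 1 library assumes that the lone library of its group varies like the other group. With 2 libraries per group, no search for outlying libraries was made.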

Other observations

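Genes that act on these transporters, or that carry amino acids but lie outside the symbol rule, were also counted. Of 8 accessory subunits and regulators 5 were tested, and 2 were up-regulated and 0 down-regulated in edgeR, against 13.9% and 15.5% of all tested genes. A list of 5 is too short to be read against these shares. NEDD4L, a ubiquitin ligase that acts on several membrane transporters, had 18.3 and 18.9 CPM in WT cells and 25.0 and 24.6 CPM in Helz-null cells (log2FC 0.42). ARL6IP1, which binds the inhibitor of a glutamate carrier, had a log2FC of 0.13, and its call was lost without Helz-null replicate 1 (edgeR FDR 0.0085) and without Helz-null replicate 2 (edgeR FDR 0.0074). With its neighbour median of 0.063 subtracted, the log2FC of ARL6IP1 was 0.068 and the call was also lost (edgeR FDR 0.052).

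Of 23 amino acid or peptide transporters outside the rule, pseudogenes included, 11 were tested, and 1 was up-regulated (9.09%, against 13.9% of all tested genes) and 4 were down-regulated (36.4%, against 15.5%). CTNS, the lysosomal cystine exporter, had 35.9 and 34.1 CPM in WT cells and 43.5 and 42.6 CPM in Helz-null cells (log2FC 0.29). The mitochondrial carriers SLC25A29 for basic amino acids, SLC25A38 for glycine and SLC25A22 for glutamate had log2FC values of -0.49, -0.30 and -0.22. The neighbours of SLC25A38 had a median of -0.27, and with it subtracted the log2FC was -0.028 and the call was lost (edgeR FDR 0.66). SLC16A10, a carrier of aromatic amino acids, had a log2FC of -0.21 and an edgeR FDR of 0.0042, and its call was lost under 9 of 12 alternatives, those without each of the 4 libraries among them (edgeR FDR from 0.0094 to 0.069).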
